A study of Mus musculus with 12 samples.

Results

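Gene expression in hearts was compared between week 3 and week 1 of an experiment on male NMRI mice, with 6 of the 12 Affymetrix MG_U74Av2 oligonucleotide arrays of the study. The 6 arrays were chosen by their titles. They hold the healthy sedentary, the diabetic sedentary and the healthy trained heart at each week, 1 array each. Healthy sedentary mice (arrays C1 and C3) had received an injection of buffer and did not run. Diabetic sedentary mice (D1 and D3) had received a single injection of streptozotocin at 180 mg/kg, which destroys the insulin-producing beta cells, and did not run. Healthy trained mice (T1 and T3) had received buffer and trained on a treadmill for 1 or 3 weeks, with daily runs of 1 h at 21 m/min on a slope of 2.5 degrees, 5 days a week. All mice were 10 to 15 weeks old by the labels, which do not give the age by week, and were killed 24 h after the last bout of running or at the same time as the runners. The RNA of 5 mice was pooled for each array, so no array shows a single animal, and a p-value here measures how far the week difference varied between 3 conditions, not between mice. The diabetic trained mice were kept out of the fit, because their week 3 RNA had been labelled a second time and was run apart from the other arrays.

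Week 3 and week 1 arrays came from the same chip lot and carried the same entry for solution type. However, all week 1 arrays were run on 1 day and all week 3 arrays on another. Time in the experiment and run day therefore cannot be told apart in any value below. The comparison asks which genes differed between the 2 times in all 3 conditions, and whether any week difference was particular to sedentary, diabetic or trained hearts. Genes that the heart is known to regulate over days include chaperones of protein folding, natriuretic peptides, immune genes that answer to interferon, and genes of the extracellular matrix, and lists of such genes are described after the single genes. Interferons are signalling proteins of the immune response. They induce GTPases that act against intracellular microbes and raise the machinery that displays peptides on major histocompatibility complex (MHC) molecules.

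The tissue label held on every array. The cardiac markers Myh6 (3227.1 to 5017.2), Tnni3 (4253.7 to 5460.1) and Mb (2717.8 to 3813.3) had high signals, and none of 11 cardiomyocyte markers measured was at or under 11.3 on all 6 arrays. That value is the highest signal of any bacterial or yeast control probe set on these arrays and serves here as the limit of a measurable signal. The lung markers Sftpb (6.1 to 12.0) and Napsa (1.5 to 3.1) were at or near the limit or under it. So were the T cell markers Cd3e (2.8 to 5.3) and Cd8a (0.5 to 4.9) and the fat cell marker Cidec (0.3 to 2.1). These were picked from lists with brighter members. On all 6 arrays, 1 of 6 lung and 2 of 10 fat cell markers measured were at or under the limit. The fat cell markers summed to 846.8 to 1266.2, so these values do not show that RNA of other tissues was absent. Among the lung markers, Scgb1a1, a secreted protein of the airway epithelium, read 205.4 on C1 and 55.6 on C3. Array medians lay between 19.1 and 20.4. The spiked bacterial controls averaged 550 on C3, against 300 to 388 on the other 5 arrays. The signal of the 18S ribosomal RNA control was 1140.9 on C3, against 80.9 to 439.2 on the other 5.

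No probe set passed the week comparison. Of 7453 probe sets tested, 0 had an adjusted p under 0.05 (limma with condition as a block and Benjamini-Hochberg adjustment, 0.0% called in either direction). The smallest adjusted p, 0.102, belonged to a probe set of Wnk1. At an unadjusted p under 0.05 there were 456 probe sets, or 6.12%, of which 241 were higher (3.23%) and 215 lower (2.88%) at week 3. In 1047 probe sets (14.0%) week 3 was higher in 3 of 3 conditions, and in 980 (13.1%) it was lower in 3 of 3. The 3 arrays of week 3 all lay above the 3 of week 1 in 380 probe sets (5.1%) and all below them in 324 (4.35%). Differences of at least 1.5-fold in 3 of 3 conditions were found in 22 probe sets with higher (0.295%) and 21 with lower (0.282%) signals, and of at least 2-fold in 2 (0.0268%) and 4 (0.0537%).

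The week difference of a probe set in 1 condition said little about its difference in another. Across the 7453 probe sets, the log2 differences of healthy sedentary and diabetic sedentary hearts correlated at r = -0.02, those of healthy sedentary and healthy trained hearts at 0.03, and those of diabetic sedentary and healthy trained hearts at 0.11. Probe sets are not independent replicates, and the 3 pairs share run days, so these values are descriptions. The SD of the log2 week difference was 0.51 in healthy sedentary, 0.45 in diabetic sedentary and 0.48 in healthy trained hearts. With 1 array against 1, 413 probe sets (5.54%) were at least 2-fold apart in healthy sedentary, 297 (3.98%) in diabetic sedentary and 339 (4.55%) in healthy trained hearts. Pairs of arrays of the same week and different conditions were at least 2-fold apart in 327 to 603 probe sets, a range that holds 2 of the 3 week counts and lies above that of diabetic sedentary hearts.

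**Figure D1:**
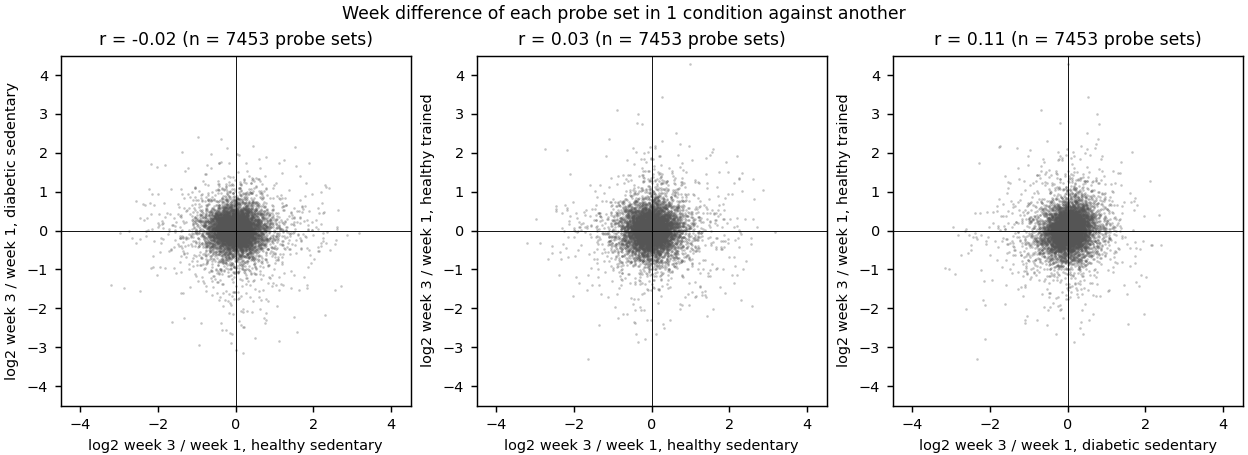
Log2 week difference (week 3 over week 1) of each of 7453 probe sets in 1 condition (x axis) against another (y axis), 1 point per probe set. The clouds are round, with r of -0.02, 0.03 and 0.11.

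The genes named next had the smallest unadjusted p among those with the same direction in 3 of 3 conditions, and none of them passed the test. Their agreement in direction is part of the rule and not a result. Signals are given in the order healthy sedentary, diabetic sedentary, healthy trained. Wnk1, a kinase that controls salt transport and blood pressure, had signals of 112.5, 67.1 and 120.6 at week 1 and 44.4, 22.2 and 45.7 at week 3 on 1 of its probe sets. The lowest week 1 array lay above the highest week 3 array, and the mean log2 difference was -1.45 (SE 0.15, adjusted p = 0.102 by limma). At week 5 the same probe set read 24.3, 8.6 and 20.3, on arrays of another lot and day. A second Wnk1 probe set went from 80.9, 43.3 and 60.2 to 30.3, 27.4 and 33.9 (-0.97, SE 0.20), but the brightest Wnk1 probe set differed from both. It read 415.4, 336.1 and 371.7 at week 1 and 348.0, 353.9 and 441.8 at week 3 (0.02, SE 0.13), so the probe sets of this gene disagreed.

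Among the other genes lower at week 3, Ago2, the slicing Argonaute of small RNA pathways, went from 95.1, 85 and 122.3 to 54.9, 43.5 and 51.4 (log2 difference -1.0, SE 0.15, adjusted p = 0.382 by limma). Dap3, a protein of the small mitochondrial ribosomal subunit, went from 96.7, 108.5 and 97.5 to 54.8, 54.3 and 57.0 (-0.86, SE 0.14). In both genes every week 3 array lay below every week 1 array. Dap3 was back at 85.1, 95.9 and 97.4 at week 5, while Ago2 was lower still, at 35, 20.9 and 25.7. Psmd11, a subunit of the proteasome lid, had -0.63 (SE 0.11) on 1 probe set and -1.09 (SE 0.23) on another, but 0.04 (SE 0.13) on the remaining one. Ddx6, a helicase of RNA decay bodies, had -0.90 (SE 0.16) on 1 probe set, -0.68 (SE 0.25) on another, with 0.08 in healthy sedentary hearts, and 0.04 (SE 0.15) on the remaining one. The mRNA decay factor Zfp36l1 was lower by a smaller amount, from 189.9, 195.2 and 203.2 to 141.3, 116.5 and 134.7 (-0.59, SE 0.13). Bik, a promoter of apoptosis, read 16.6, 27.5 and 31.6 at week 1 and 3.3, 12.4 and 9.8 at week 3 (-1.62, SE 0.33). Of its week 3 signals 2 lay under the control limit, and with the floor set at that limit the difference was -1.06. Tomm34, a mitochondrial import co-factor, had -0.77 (SE 0.16), and the remaining probe sets were those of the class I genes H2-D1 and H2-K1 described with their list.

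Among the genes higher at week 3 was Edn1, the precursor of the vasoconstrictor endothelin-1. One of its probe sets read 8.5, 7.7 and 6.4 at week 1 and 24.9, 24.3 and 25.8 at week 3. Every week 1 signal was under the control limit, so week 3 was at least 2.21-fold higher, with an adjusted p of 0.382 by limma. The bound takes the dim week at the highest control signal. The diabetic trained heart of week 1 read 22.1 on the same probe set, and a second Edn1 probe set had a log2 difference of 0.13 (SE 0.44). Ccn2, a matrix protein of the CCN family induced by TGF-beta, had nearly equal differences in the 3 conditions. It went from 128.7, 555.5 and 134.5 to 202.4, 810.8 and 191.1 (0.57, SE 0.11, adjusted p = 0.486 by limma). The weeks overlap only because both diabetic hearts were above all 4 healthy ones. Kif5b, the heavy chain of the motor kinesin-1, went from 32.2, 44.2 and 43.2 to 50.2, 85.9 and 78.1 (0.82, SE 0.16). The tubulin gene Tubb4a went from 18.4, 15.6 and 16.6 to 68.4, 51.9 and 29.5 (1.49, SE 0.26) and was again low at week 5, at 20.1, 12.4 and 23.4. In Kif5b and Tubb4a the weeks did not overlap.

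The other higher genes were Pitpnb, a lipid transfer protein (1.08, SE 0.19), Wdr5, a core subunit of histone H3 methyltransferases (0.76, SE 0.15), and Lef1, a transcription factor of the Wnt pathway (1.34, SE 0.27). A second Pitpnb probe set, the brighter of the 2, had a difference of 0.00 (SE 0.18). Apmap, a membrane protein of fat cells (1.49, SE 0.30, with C1 under the control limit), Psmd5, a proteasome assembly chaperone (0.81, SE 0.17), and Bmpr2, a receptor of bone morphogenetic proteins (0.71, SE 0.16), followed. Lef1 was uneven, at 17.4, 48.6 and 13.3 in week 1 against 49.2, 72.8 and 50.9 in week 3. The chaperone Dnajb4 and the atrial light chain Myl4 are described with their lists. Over the 24 probe sets, adjusted p lay between 0.102 and 0.519.

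**Figure D2:**
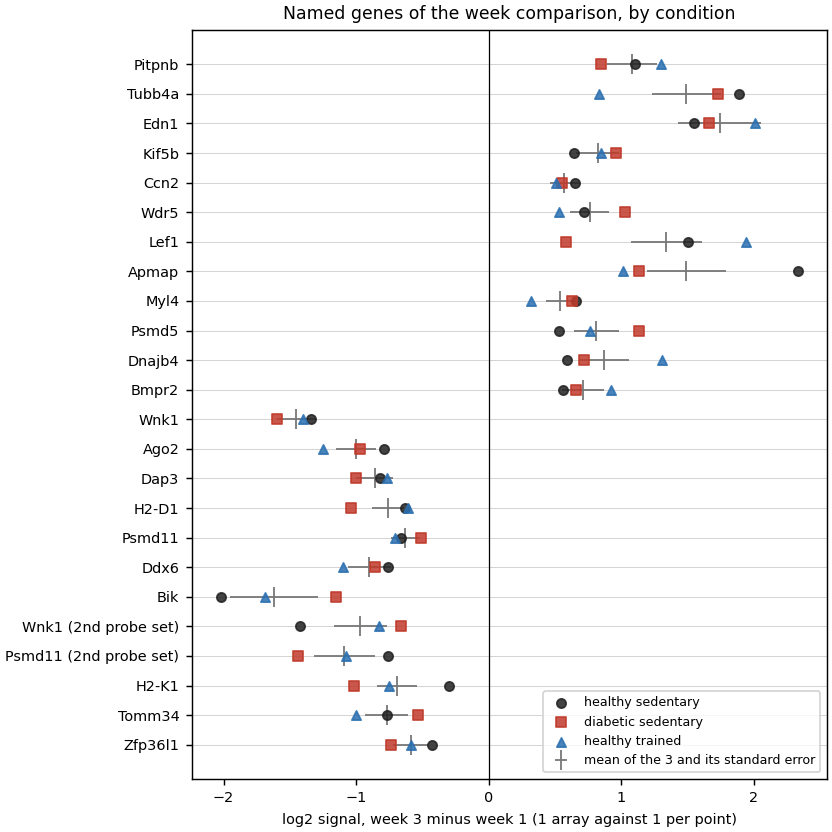
Log2 signal difference between week 3 and week 1 (x axis) of the 24 named probe sets, with 1 point per condition and the mean of the 3 differences with its standard error. The 3 points of a gene fall on the same side of 0 because the genes were chosen that way.

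Gene lists were described by the median log2 difference of their measured genes and by counts. Over all probe sets tested the median was 0.00, with -0.02 in healthy sedentary, 0.02 in diabetic sedentary and 0.01 in healthy trained hearts. Of 45 lists, 44 had 3 or more tested genes, and in none did a gene pass. Their medians ran from -0.85 for class II antigen presentation to 0.35 for atrial markers. Most lists lay close to 0. Oxidative phosphorylation subunits had 0.02 over 57 genes, adult sarcomere proteins 0.04 over 15, fatty acid uptake and beta-oxidation 0.01 over 22, glycolysis and glucose use 0.02 over 27, and cytoplasmic ribosomal proteins 0.01 over 25. The immediate early genes had 0.06 over 22 genes and the clock genes 0.06 over 15. The 3 lists farthest below 0 were those of the interferon response and of class I and class II presentation, and each had its lowest median in diabetic sedentary hearts.

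**Figure D3:**
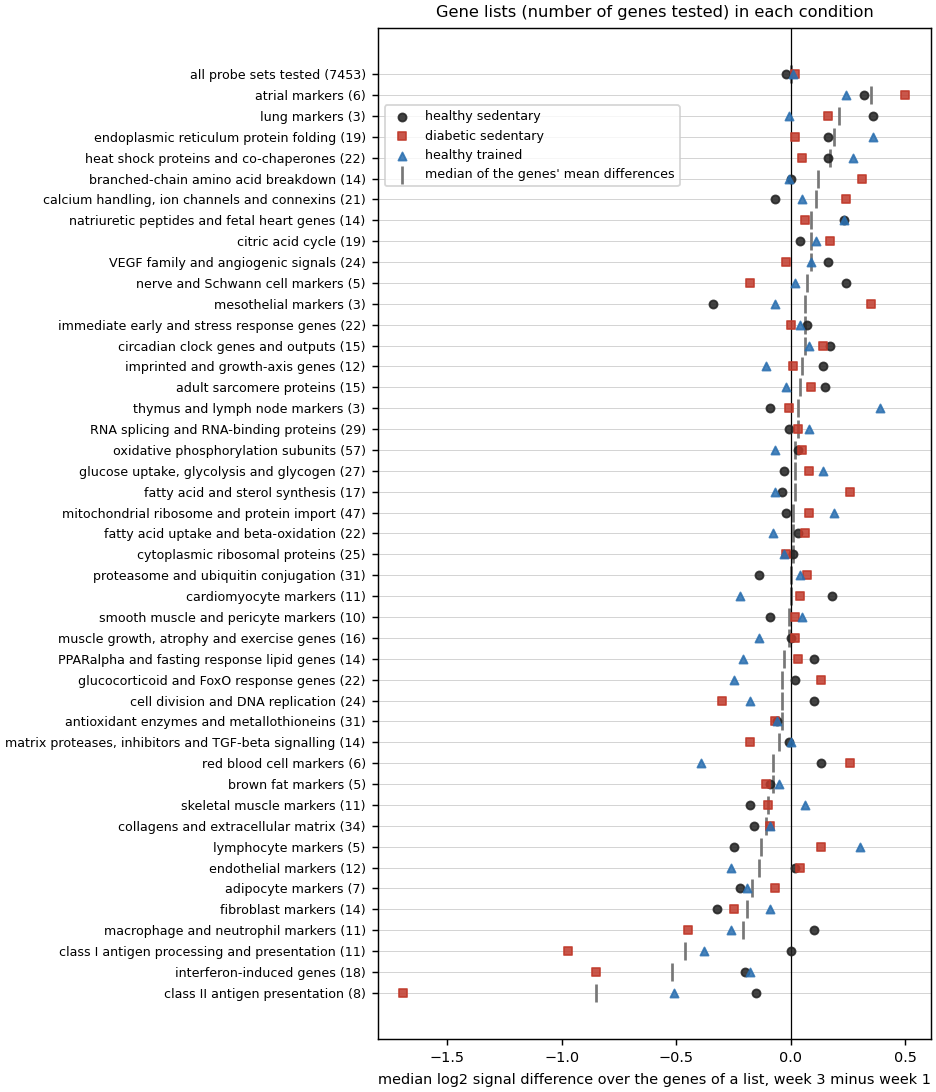
Median log2 signal difference between week 3 and week 1 (x axis) for each gene list with 3 or more tested genes and for all probe sets, with 1 point per condition and a bar for the median of the genes' mean differences. Interferon and antigen presentation lists lie lowest, at -0.52, -0.46 and -0.85, with diabetic sedentary hearts at -0.85, -0.97 and -1.69.

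Of 18 interferon-induced genes tested 0 passed for the week comparison, and 16 had a lower signal at week 3 than at week 1 in diabetic sedentary hearts, as did 47.0% of all probe sets. Iigp1, an immunity-related GTPase, read 77.4, 578.5 and 108.1 at week 1 and 74.5, 131.0 and 44.0 at week 3. Igtp, another GTPase of that family, read 16.9, 199.8 and 22.8 at week 1 and 15.6, 27.0 and 10.5 at week 3. Gbp3, a guanylate-binding protein, read 29.0, 292.7 and 45.2 at week 1 and 24.4, 49.9 and 30.4 at week 3. In each of these genes the diabetic heart of week 1 stood far above the other 5 arrays, and the healthy sedentary heart was nearly level. The healthy trained heart was lower at week 3 in all 3 genes, by more than 2-fold in Iigp1 and Igtp. Its week 3 signal of Igtp, 10.5, lay under the control limit. The log2 differences of Igtp were -0.12, -2.89 and -1.12 in healthy sedentary, diabetic sedentary and healthy trained hearts, with a mean of -1.37 (SE 0.46, adjusted p = 0.748 by limma). Those of Irgm2, also an immunity-related GTPase, were 0.09, -2.32 and -0.23. Its signal was 214.4 in the diabetic heart of week 1 and 34.4 to 47.5 on the other 5 arrays. Ifi27, a small mitochondrial protein, did not follow them and had its largest difference in healthy sedentary hearts, at -0.74.

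The starts of 3 of these genes are shown because the same short element occurs in them. The sequences are the 250 bases before the gene's start from RefSeq on GRCm38.p6, written along the gene's strand, and capitals mark the element GAAANNGAAA or its reverse complement TTTCNNTTTC, the core of the interferon-stimulated response element, searched on both strands. Igtp lies at chr11:58199306-58199555, plus strand, Gbp3 at chr3:142559794-142560043, plus strand and Irgm2 at chr11:58214727-58214976, plus strand. Counted back from the start, the element sat at bases -34 to -25 in Igtp and at -64 to -55 in Irgm2, and in Gbp3 it sat at -45 to -36 and again, overlapping, at -39 to -30.
Igtp: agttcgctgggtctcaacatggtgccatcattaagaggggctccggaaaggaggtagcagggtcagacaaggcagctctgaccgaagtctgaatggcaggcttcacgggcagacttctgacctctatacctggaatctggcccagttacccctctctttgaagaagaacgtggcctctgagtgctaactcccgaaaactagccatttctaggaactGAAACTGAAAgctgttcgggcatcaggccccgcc
Gbp3: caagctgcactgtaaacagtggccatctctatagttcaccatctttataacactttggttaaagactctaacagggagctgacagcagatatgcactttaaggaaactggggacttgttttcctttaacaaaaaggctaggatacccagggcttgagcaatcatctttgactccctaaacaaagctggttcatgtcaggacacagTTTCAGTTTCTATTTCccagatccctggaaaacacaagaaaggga
Irgm2: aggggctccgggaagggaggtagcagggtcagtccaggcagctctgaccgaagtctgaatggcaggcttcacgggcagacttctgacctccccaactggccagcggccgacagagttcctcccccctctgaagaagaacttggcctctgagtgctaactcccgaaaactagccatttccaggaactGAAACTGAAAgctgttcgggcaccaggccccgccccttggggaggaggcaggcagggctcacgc
Of the 18 tested interferon-induced genes 13 had a RefSeq promoter, and 8 of these held the element in any of their promoters. Of all 32851 promoter sequences 978 held it (2.98%), a share counted by sequence and not by gene. A match describes the letters and does not show that a factor was bound.

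Over the whole list of interferon-induced genes, the number lower at week 3 in 3 of 3 conditions was 8, against 13.1% of all probe sets, and 5 had an unadjusted p under 0.05 with a lower signal, against 2.88%. The list median was -0.52, and by condition it was -0.20 in healthy sedentary, -0.85 in diabetic sedentary and -0.18 in healthy trained hearts. In diabetic sedentary hearts 7 of the 18 were at least 2-fold lower at week 3 (background 2.35%). In healthy trained hearts 3 of the 18 were, against 154 of 7453 probe sets, and in healthy sedentary hearts 2, against 186. The test of whether the diabetic week difference departed from that of the other 2 conditions called 0 of 7453 probe sets. Wars, the tryptophanyl-tRNA synthetase, which interferon induces, had a departure of -2.42 (SE 0.35, adjusted p = 0.336 by limma), and Irgm2 one of -2.25 (adjusted p = 0.452 by limma). Signals of the diabetic trained hearts, which were not in the fit, were 131.6 for Igtp and 190.1 for Gbp3 at week 1. At week 3 they were 44.2 and 49.6, on the array that had been labelled again. For both genes, both diabetic arrays of week 1 were thus above the other 5 fitted arrays.

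**Figure D4:**
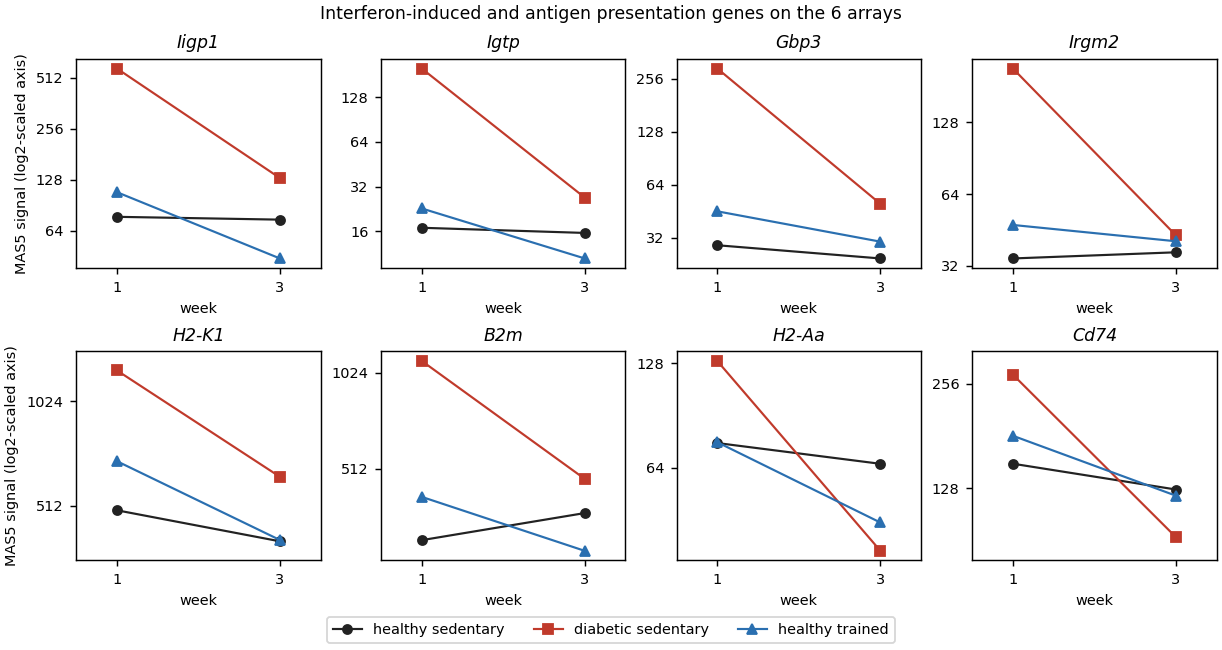
MAS5 signals (y axis, log2-scaled) of 8 interferon-induced and antigen presentation genes at weeks 1 and 3 (x axis), 1 point per array, with a line joining the 2 pools of a condition. The diabetic sedentary heart of week 1 has the highest signal in all 8 panels. The genes were picked from those named in the text, and Ifi27 and H2-Eb1 are not shown. The share of all probe sets with this array highest was not computed, so the count is not a result.

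Class I genes display peptides from inside the cell to cytotoxic T cells. H2-K1, a class I heavy chain, read 496.0, 1254.6 and 686.9 at week 1 and 403.7, 619.4 and 407.2 at week 3 (-0.69, SE 0.15, adjusted p = 0.496 by limma). H2-D1, another heavy chain, read 377.3, 1021.7 and 467.9 at week 1 and 244.6, 497.8 and 307.3 at week 3 on its probe set of smallest p (-0.76, SE 0.12, adjusted p = 0.382 by limma). These probe sets carry the suffix _f_at, which marks probes shared by several genes of a family, so a signal cannot be given to 1 class I gene. On both of these probe sets the weeks overlap through the high diabetic signals, and each condition was lower at week 3. Other probe sets differed in part. The brightest of H2-D1, which stands for the gene in its list, read 407.8 and 408.5 in healthy sedentary hearts at weeks 1 and 3 and had a mean difference of -0.46 (SE 0.17), and 1 of H2-K1 was higher at week 3 in diabetic hearts, by 0.26 on the log2 scale. B2m, the light chain, read 306.0, 1114.1 and 418.0 at week 1 and 372.0, 476.0 and 283.3 at week 3, higher in healthy sedentary hearts and lower in the other 2. Psmb8, an interferon-inducible proteasome subunit, read 62.1, 206.2 and 83.1 at week 1 and 64.3, 68.5 and 49.5 at week 3. Psmb9, its partner, read 33.9, 79.5 and 34.3 at week 1 and 4.6, 28.6 and 27.5 at week 3. The 4.6 lay under the control limit, so the size of its difference in healthy sedentary hearts is uncertain. Of 11 genes tested 5 were lower in 3 of 3 conditions (background 13.1%) and 4 had an unadjusted p under 0.05, all lower (background 2.88%). The list median was 0.00 in healthy sedentary, -0.97 in diabetic sedentary and -0.38 in healthy trained hearts, and all 11 genes were lower in each of the latter 2, against 47.0% and 49.0% of all probe sets.

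Class II genes display peptides from outside the cell and are expressed by antigen-presenting cells. Cd74, the invariant chain, read 150.7, 272.1 and 181.4 at week 1 and 127.0, 92.6 and 121.9 at week 3 (-0.79, SE 0.23). H2-Aa, a class II alpha chain, read 75.4, 129.9 and 75.8 at week 1 and 65.7, 36.9 and 44.5 at week 3 (-0.93, SE 0.28). In both genes all week 3 arrays lay below all week 1 arrays, and the adjusted p was 0.74 by limma. Of 8 genes 5 were lower in 3 of 3 conditions (background 13.1%) and 3 had weeks that did not overlap (background 4.35%). The median was -0.15 in healthy sedentary, -1.69 in diabetic sedentary and -0.51 in healthy trained hearts. H2-Eb1 went the other way, with a mean difference of 0.76 (SE 0.46).

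Leaving out the healthy sedentary pair changed the outcome of the week comparison. That pair holds C3, the array with spiked controls at 550 and an 18S signal of 1140.9. The part of that array in the change was not tested. In the fit of diabetic sedentary and healthy trained hearts alone, 22 probe sets passed by limma, 20 lower (0.268%) and 2 higher (0.0268%), with 1 residual degree of freedom. Of the 17 named ones 9 were genes of the interferon, class I or class II lists, whose 37 tested genes are 0.654% of the 5657 named genes tested. The 9 were counted by gene name. H2-D1 is among them through a probe set other than the one that stands for it in its list, which did not pass (adjusted p = 0.0945 by limma). Iigp1 had a log2 difference of -1.72 (SE 0.20, adjusted p = 0.00563 by limma), Igtp -2.00, H2-K1 -0.89, B2m -0.89, Psmb8 -1.17, H2-Aa -1.29 and Ly6e -0.89. The probe sets of H2-K1 and Ly6e carry the suffix _f_at. Gbp7, a guanylate-binding protein outside the lists, had -2.02 (SE 0.33), and its signals were 39.9, 449.1 and 79.8 at week 1 and 39.9, 53.9 and 40.2 at week 3. The probe set of Wnk1 passed as well (-1.50), as did that of Ago2 (-1.11). The 2 higher genes were Fyttd1, an adaptor of mRNA export (1.00, SE 0.18), and Ssr3, a subunit of the translocon-associated complex (1.07, SE 0.20). On 15 of the 22 probe sets the diabetic sedentary heart of week 1 had the highest signal of the 6 arrays. Because 20 of the 22 passed with a lower signal at week 3 in these 2 conditions, the choice itself favours their week 1 arrays. The share over all probe sets was not computed, so the count is a description. With the diabetic pair or the trained pair left out, 0 passed. Without the diabetic pair, 0 of 18 interferon-induced genes had an unadjusted p under 0.05 by limma. Of all probe sets 2.43% were lower at that p, so 0 is near the background in so short a list. The median of the interferon list was then -0.41, and 2 of 11 class I and 1 of 8 class II genes were lower at that p.

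Markers of immune cells were read beside these lists. Of 20 macrophage and neutrophil markers on the array, 5 were at or under 11.3 on all 6 arrays. Their summed signal was 901.2, 1113.2 and 1093.5 at week 1 and 888.8, 829.1 and 888.8 at week 3. The weeks did not overlap, but 901.2 and 888.8, both of healthy sedentary hearts, lay close together. In those hearts 7 of 11 tested markers were higher at week 3, with a median log2 difference of 0.1. The medians were -0.45 in diabetic sedentary and -0.26 in healthy trained hearts. No overlap between the weeks was found for 0 of the 11. Lyz2, the lysozyme of macrophages, read 169.3, 221.6 and 190.8 at week 1 and 105.0, 172.4 and 162.2 at week 3 (-0.43, SE 0.13, adjusted p = 0.74 by limma). Of 16 lymphocyte markers, 9 were at or under the limit on all 6 arrays, the T cell receptor chains Cd3e, Cd3d and Cd3g among them, and the summed signal was 178.5 to 212.9 at week 1 and 158.9 to 205.0 at week 3. The part of immune cell number in the interferon and antigen presentation values was not tested. In bulk tissue fewer cells of a type and less RNA per cell cannot be told apart.

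Several genes of protein folding in the endoplasmic reticulum had higher signals at week 3 in 3 of 3 conditions, and none passed the test. Hspa5, the chaperone BiP, read 598.0, 448.4 and 427.6 at week 1 and 669.8, 635.6 and 639.7 at week 3 (0.42, SE 0.12). Hsp90b1, the chaperone GRP94, read 414.9, 407.5 and 387.5 at week 1 and 486.2, 516.4 and 547.0 at week 3 (0.36, SE 0.11). Manf, a secreted factor of the folding stress response, read 58.2, 55.0 and 54.6 at week 1 and 91.6, 75.3 and 92.4 at week 3 (0.62, SE 0.15). In these 3 genes the weeks did not overlap. Pdia6, a protein disulfide isomerase, did not overlap either, with 28.6, 34.0 and 29.8 against 40.4, 46.8 and 54.4 (0.61, SE 0.18). Its direction turned when the diabetic trained pair was added, to -0.09, the signal of that pair being 46.6 at week 1 and 10.2 at week 3. Adjusted p ran from 0.632 to 0.74 by limma for these 4 genes. Of 19 genes tested 0 passed, 5 had an unadjusted p under 0.05 with a higher signal (background 3.23%), 9 were higher in 3 of 3 conditions (14.0%) and 8 had weeks that did not overlap (5.1%). The list median was 0.19, with 0.16 in healthy sedentary, 0.02 in diabetic sedentary and 0.36 in healthy trained hearts. Ddit3, the transcription factor CHOP of prolonged folding stress, had -0.01 (SE 0.18), and the stress-induced factor Atf4 had 0.04 (SE 0.15).

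The starts of Hspa5, Hsp90b1 and Pdia6 hold the endoplasmic reticulum stress response element, and they are shown for that reason. Capitals mark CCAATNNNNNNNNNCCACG on either strand in the 250 bases before the start (RefSeq, GRCm38.p6). Hspa5 lies at chr2:34771840-34772089, plus strand, Hsp90b1 at chr10:86705445-86705694, minus strand and Pdia6 at chr12:17266339-17266588, plus strand. The element sat at bases -65 to -47 in Hspa5 and at -98 to -80 in Pdia6. Hsp90b1 held it at -212 to -194 and, in the other orientation, at -107 to -89.
Hspa5: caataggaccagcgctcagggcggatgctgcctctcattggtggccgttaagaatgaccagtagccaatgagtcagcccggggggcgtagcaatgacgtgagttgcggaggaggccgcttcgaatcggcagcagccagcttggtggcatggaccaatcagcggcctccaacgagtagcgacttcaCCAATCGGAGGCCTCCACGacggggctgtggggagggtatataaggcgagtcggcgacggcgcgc
Hsp90b1: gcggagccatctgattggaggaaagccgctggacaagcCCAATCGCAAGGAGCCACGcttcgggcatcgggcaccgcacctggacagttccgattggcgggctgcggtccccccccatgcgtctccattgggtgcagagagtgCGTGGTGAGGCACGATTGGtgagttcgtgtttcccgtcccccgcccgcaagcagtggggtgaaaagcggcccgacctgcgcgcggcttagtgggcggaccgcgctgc
Pdia6: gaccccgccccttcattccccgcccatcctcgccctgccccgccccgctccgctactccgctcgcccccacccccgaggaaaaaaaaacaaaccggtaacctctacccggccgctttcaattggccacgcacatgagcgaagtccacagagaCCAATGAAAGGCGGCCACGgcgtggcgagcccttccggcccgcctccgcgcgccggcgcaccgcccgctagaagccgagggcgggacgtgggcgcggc
Among 18 tested genes of the list with a promoter sequence, 6 held the element, against 37 of all 32851 promoters (0.113%). The other 3 were Canx, Creld2 and Dnajc3. Creld2 was higher at week 3 in 3 of 3 conditions (0.45, SE 0.23), while Canx (-0.13, SE 0.16) and Dnajc3 (0.01, SE 0.25) were not. A gene was counted if any of its promoters held the element, while the share over all promoters was counted by sequence.

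Among cytosolic chaperones, some had higher signals at week 3 in all conditions and some in healthy hearts alone, and none passed. Dnajb4, an Hsp40 co-chaperone, read 44.9, 31.0 and 38.8 at week 1 and 67.4, 51.1 and 95.9 at week 3 (0.87, SE 0.19, adjusted p = 0.519 by limma). St13, a co-chaperone of Hsc70, read 66.1, 44.0 and 60.8 at week 1 and 92.8, 73.9 and 97.5 at week 3 (0.64, SE 0.15). In both the weeks did not overlap. Hspa1a, the stress-inducible Hsp70, read 91.3, 22.4 and 42.6 at week 1 and 346.2, 14.6 and 145.3 at week 3. It was higher in both healthy conditions, with log2 differences of 1.92 and 1.77, and lower in the diabetic one, with -0.62. Hspa1b, its near-identical copy, had 2.13, -0.53 and 1.21, and probes may not tell the 2 genes apart. The departure of diabetic hearts from the other 2 conditions was -2.46 for Hspa1a (adjusted p = 0.336 by limma). Hsp90aa1, the inducible cytosolic Hsp90, had 0.31 (SE 0.11), but -0.10 with the diabetic trained pair added. Of 22 genes tested 10 were higher in 3 of 3 conditions (background 14.0%) and 4 had an unadjusted p under 0.05, all higher (background 3.23%). The list median was 0.17, with 0.05 in diabetic sedentary hearts.

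Of the 6 atrial markers tested, Myl4, Myl7 and Nppa had higher signals at week 3 in 3 of 3 conditions, and none passed. Myl4, the atrial essential light chain, read 1116.7, 741.9 and 1090.9 at week 1 and 1767.6, 1147.0 and 1360.5 at week 3 (0.54, SE 0.11, adjusted p = 0.486 by limma). A second, dimmer Myl4 probe set had differences of 1.58, 0.23 and -0.29 (0.51, SE 0.31), with overlapping weeks. Myl7, the atrial regulatory light chain, read 1422.9, 901.6 and 1337.4 at week 1 and 1869.8, 1310.5 and 1658.5 at week 3 (0.41, SE 0.10). Nppa, the precursor of atrial natriuretic peptide, read 740.1, 826.0 and 744.5 at week 1 and 878.9, 1137.2 and 830.2 at week 3 (0.29, SE 0.11). For the brighter Myl4 probe set and for Nppa the week 3 arrays lay above all week 1 arrays. For Myl7 the low diabetic hearts make the weeks overlap. Dkk3, a secreted protein of the Dickkopf family, had 0.67, 0.96 and -0.01. An unadjusted p under 0.05 was found for 4 of the 6, all higher (background 3.23%). The summed signal of the 9 atrial markers on the array was 3586.5, 2679.4 and 3462.2 at week 1 and 4865.6, 3882.2 and 4176.1 at week 3. It was 2867.2, 2638.6 and 3064.6 at week 5, on another lot and day. The defining markers Sln (3.6 to 23.4), Kcnj3 (8.2 to 11.4) and Bmp10 (2.7 to 18.7) gave signals near the limit, so they bear little on the amount of atrium in a pool. The part that dissection of the atria played in these values was not tested.

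**Figure D5:**
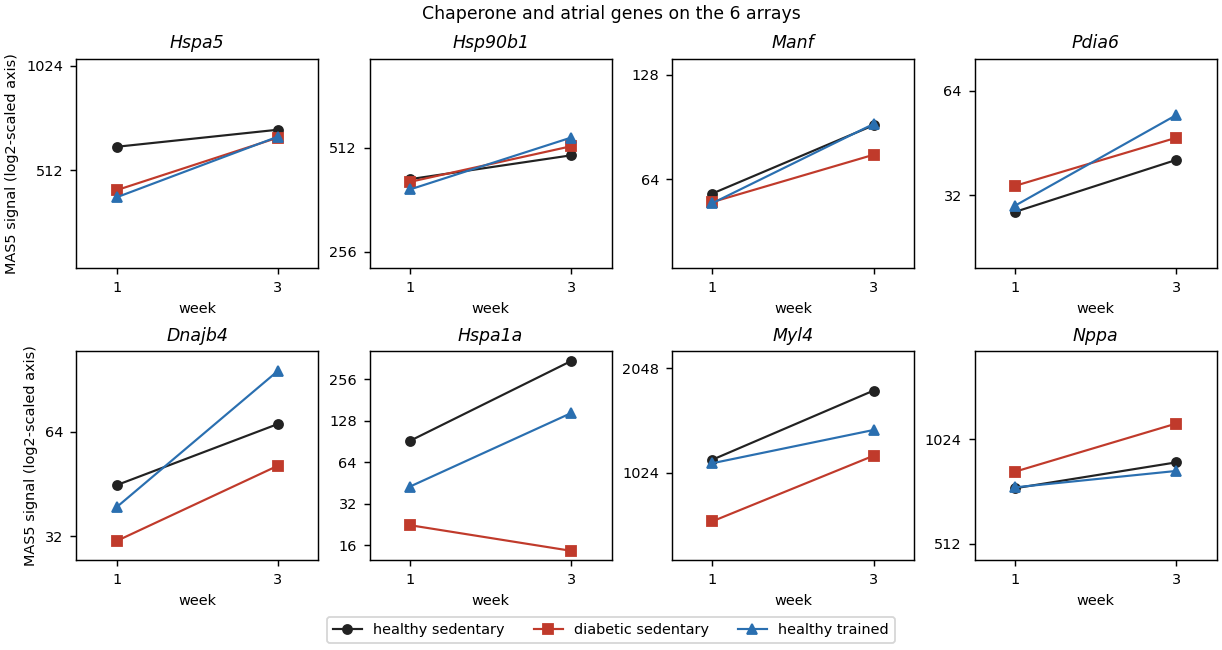
MAS5 signals (y axis, log2-scaled) of 6 chaperone genes and 2 atrial genes at weeks 1 and 3 (x axis), 1 point per array, with a line joining the 2 pools of a condition. All lines run upwards from week 1 to week 3 except that of Hspa1a in diabetic sedentary hearts, which goes from 22.4 to 14.6. The genes were picked from those named in the text, so their shared direction is not a result. In diabetic sedentary hearts 9 of 19 folding genes and 9 of 22 heat shock genes tested were lower at week 3, as were 47.0% of all probe sets.

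The list of natriuretic peptides and fetal heart genes, which shares Myl4, Myl7 and Nppa with the atrial markers, had a median of 0.09 over 14 genes. Ankrd1, a stress-responsive sarcomere protein, read 1918.3, 1985.0 and 1436.6 at week 1 and 2350.9, 2477.6 and 1880.5 at week 3 (0.33, SE 0.09, adjusted p = 0.74 by limma). Nppb, the precursor of B-type natriuretic peptide, read 905.5, 1154.7 and 571.9 at week 1 and 757.6, 1266.0 and 1527.9 at week 3. It was thus higher at week 3 in trained hearts (1.42 on the log2 scale), against -0.26 and 0.13 in the healthy and diabetic sedentary ones. The 571.9 of T1 was the lowest signal of the 6 arrays. That array also had the highest ratio of 3' to 5' actin signal (2.46), a measure of RNA quality, whose part was not tested. At week 5 Nppb read 610.0, 1502.8 and 701.6, on arrays of another lot and day. The departure of trained hearts was 1.48 (adjusted p = 0.0923 by limma). The fetal myosin heavy chain Myh7 had 0.12 (SE 0.12), and both diabetic hearts (3962.2 and 4031.7) were above all healthy ones (1026.2 to 1503.9) at both weeks. Acta1, skeletal alpha-actin, had -0.23 (SE 0.26).

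Of 34 collagens and matrix proteins 9 were lower and 1 was higher at week 3 in 3 of 3 conditions, where the background was 13.1% and 14.0%, and 0 passed. Mgp, matrix Gla protein, an inhibitor of calcification, read 201.9, 363.9 and 290.7 at week 1 and 159.4, 231.7 and 226.9 at week 3 (-0.45, SE 0.12, adjusted p = 0.74 by limma). Fbln1, fibulin-1, read 262.5, 298.3 and 321.4 at week 1 and 224.8, 234.5 and 232.9 at week 3 (-0.35, SE 0.11), with no overlap between the weeks. Pdgfra, a growth factor receptor of fibroblasts, read 165.2, 278.9 and 231.0 at week 1 and 109.7, 212.7 and 191.6 at week 3 (-0.42, SE 0.12). Fbln2 (-0.39, SE 0.14) and Dpt, dermatopontin (-0.50, SE 0.20), were also lower in 3 of 3 conditions. The median of the matrix list was -0.11. Of 14 fibroblast markers 4 had an unadjusted p under 0.05, all lower (background 2.88%), and the median was -0.19. The fibrillar collagens were uneven. Col1a1 read 211.9, 156.4 and 213.7 at week 1 and 188.9, 85.8 and 231.8 at week 3, and Col3a1 read 142.6, 82.9 and 91.0 at week 1 and 103.8, 40.6 and 149.7 at week 3. In both, diabetic hearts were lower at week 3 and trained hearts higher. The summed signal of the fibroblast markers, 5444.3 to 6069.6 at week 1 and 5292.9 to 5806.0 at week 3, overlapped between the weeks.

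Of 24 genes of the VEGF family and angiogenic signalling 6 were higher (background 14.0%) and 3 lower (background 13.1%) at week 3 in 3 of 3 conditions, and 0 passed. Kdr, the main VEGF receptor of endothelium, read 60.4, 59.6 and 58.6 at week 1 and 79.6, 68.5 and 72.8 at week 3 (0.30, SE 0.14). Tek, the angiopoietin receptor, read 51.0, 51.3 and 46.0 at week 1 and 57.1, 57.1 and 52.2 at week 3 (0.17, SE 0.15). Vegfa had 0.30 (SE 0.14), and its receptor Flt1 0.15 (SE 0.15). Rgs5, a regulator of G protein signalling in pericytes, went from 65.4, 59.5 and 46.6 to 80.4, 89.8 and 66.7 (0.47, SE 0.15). In Kdr, Tek and Rgs5 the weeks did not overlap, and none passed (adjusted p of 0.74 to 0.918 by limma). The list of VEGF family and angiogenic signals had a median of 0.09 over 24 genes, and the endothelial markers had -0.14 over 12.

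In the metabolic and housekeeping lists, medians lay close to 0 and the members of smallest p are given here as values that did not pass. Mrpl15, a mitochondrial ribosomal protein, read 121.2, 73.1 and 116.2 at week 1 and 148.4, 129.1 and 151.5 at week 3 (0.50, SE 0.15). Psmb6, a catalytic proteasome subunit, read 122.8, 179.1 and 149.7 at week 1 and 182.9, 188.6 and 186.2 at week 3 (0.32, SE 0.14). Their lists had medians of 0.01 over 47 genes and 0.00 over 31. Tfeb and Mitf, related transcription factors of lysosome genes, were both lower in 3 of 3 conditions without overlap, at log2 differences of -0.94 (SE 0.33) and -0.69 (SE 0.24), at signals of 7.2 to 31.7. Glul, glutamine synthetase and a target of glucocorticoids, had -0.50 (SE 0.15), while Tsc22d3, another such target, had 0.83 (SE 0.28) at signals of 9.7 to 23.7. Txn1, thioredoxin, read 277.5, 309.4 and 322.7 at week 1 and 248.0, 240.8 and 255.7 at week 3 (-0.29, SE 0.11), with no overlap. Pdk4, the kinase that turns off pyruvate oxidation in fasting and diabetes, read 444.7, 1342.9 and 373.6 at week 1 and 552.7, 1016.7 and 288.6 at week 3. Adjusted p was 0.74 to 0.918 by limma for these genes.

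Whether the week difference departed in 1 condition from the other 2 was tested directly. Healthy sedentary hearts had 11 such probe sets by limma, 8 higher (0.107%) and 3 lower (0.0403%), diabetic sedentary hearts had 0 (0.0%, with 279, or 3.74%, at an unadjusted p under 0.05) and healthy trained hearts had 1 (0.0134%). This fit leaves 1 residual degree of freedom, so its spread rests on how alike the other 2 conditions were. Fahd1, a mitochondrial hydrolase, read 128.2, 219.8 and 368.4 at week 1 and 330.2, 186.9 and 287.2 at week 3, and its difference in healthy sedentary hearts departed by 1.66 (SE 0.25, adjusted p = 0.0429 by limma). Hap1, huntingtin-associated protein, read 14.6, 26.3 and 44.8 at week 1 and 75.0, 25.5 and 22.7 at week 3 (2.87, SE 0.48, adjusted p = 0.0488 by limma). Prkd2, a protein kinase D, read 73.2, 47.6 and 46.0 at week 1 and 9.4, 46.0 and 57.0 at week 3 (-3.09, SE 0.38, adjusted p = 0.0223 by limma), but a second Prkd2 probe set read 51.2 on C1 and 43.8 on C3. The 9.4 of C3 lay under the control limit, and with the floor set there the departure was -2.83 (adjusted p = 0.218 by limma). The week 3 signal of healthy sedentary hearts stood apart from all other arrays in Hap1 and Prkd2, and in Fahd1 it was the week 1 signal that did.

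The other named calls in healthy sedentary hearts were Degs2, a sphingolipid enzyme (4.29, SE 0.69), H2-DMb1, a class II peptide loader (3.90, SE 0.64), Prp2 (2.66, SE 0.42), Erdr1 (1.58, SE 0.23), Ly6e (1.36, SE 0.23) and Larp7, a binder of the 7SK RNA (-2.95, SE 0.51). The probe sets of Fahd1, Erdr1 and Ly6e carry the suffix _f_at, so their signals cannot be given to 1 gene. Degs2 and H2-DMb1 read 6.4 to 9.7 on 3 of the 6 arrays each, under the control limit, so the size of their departure is uncertain. Larp7 read 6.1 on C3, also under the limit, and with the floor set there its departure was -2.06 (adjusted p = 0.349 by limma). Its other 2 probe sets had departures of -0.12 and -1.84, and a second Prp2 probe set had 1.19. Rbm4b, an RNA-binding protein, was the call in healthy trained hearts, from 61.0, 56.8 and 6.5 at week 1 to 32.8, 35.2 and 56.1 at week 3 (3.90, SE 0.47, adjusted p = 0.00961 by limma). It rests on the signal of T1, which lay under the control limit. T1 also had the highest ratio of 3' to 5' actin signal of the 6 arrays, a measure of RNA quality, at 2.46 against 1.70 to 1.99, and its part in the call was not tested. With a floor at the control limit 0 probe sets passed for healthy sedentary hearts, and with robust moderation 57 did, so the number of calls depends on the settings. The C3 array, on which the healthy sedentary calls rest in part, was also the one with spiked controls at 550 and an 18S signal of 1140.9, and the part of these in the calls was not tested.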

How the data were processed

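Per the labels, RNA of each group was pooled and hybridised to 1 Affymetrix array. The authors deposited a table of linear signal intensities. The submitters' processing notes name MAS5 as the tool; no version of it was found in the sources used here. The trimmed mean of every array was 50.03 to 50.04. The authors' experiment files were read for lot, run day, solution type, fluidics module and comments alone. Each condition was run on its own module, so module and condition cannot be told apart. No depth exists for arrays, and their number limits the precision.

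Signals were floored at 4.1, the 20th percentile of the table, and log2-transformed. Of 12422 probe sets other than controls, 10833 had 1 symbol, 396 several and 1193 none in GEO's platform annotation, and 10817 symbols were matched through RefSeq. Probe sets with a mean log2 signal over the 12 arrays at or above the 40th percentile (a signal of 11.6) were tested. That left 7453 probe sets of 5657 named genes. The week comparison was fitted with limma 3.58.1 in R 4.3.3 (lmFit, eBayes with an intensity trend, two-sided, Benjamini-Hochberg, threshold 0.05) with condition and week, leaving 2 residual degrees of freedom. A departure of 1 condition was the interaction of week with it, with 1 left. The scripts were tested on simulated data. Condition pairs the arrays by the study's design. Deviations from the week means correlated between the 2 arrays of a condition at 0.12 in healthy sedentary, 0.32 in diabetic sedentary and 0.04 in healthy trained hearts. Pairs of different conditions gave -0.22 to 0.13, and C1 with T3 (0.13) and T1 with C3 (0.09) were as alike as the healthy pairs.

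Named genes were the 12 of smallest unadjusted p in each direction, with 1 symbol, the same sign in 3 of 3 conditions and a signal above the controls in the higher week, because none passed. The 5 of each direction in each interaction, and up to 4 of smallest p in a list, were added. Other genes are named to show list members, markers or values that differ. A gene entered a list with its brightest probe set. The comparison, the lists and the tests were chosen with earlier results of these data known. Alternatives to the floor, filter, normalization, moderation, pairing and arrays fitted were run, and each pair was left out in turn.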

Additional observations from a re-analysis of the deposited data

Results flagged for a closer look

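The 10 named probe sets whose week difference departed in 1 condition from the other 2 are listed with the log2 size of the departure, positive where week 3 was higher relative to week 1 than in the others. In healthy sedentary hearts these were Degs2 (4.29), H2-DMb1 (3.90), Hap1 (2.87), Prp2 (2.66), Fahd1 (1.66), Erdr1 (1.58), Ly6e (1.36), Larp7 (-2.95) and Prkd2 (-3.09), and in healthy trained hearts Rbm4b (3.90). Adjusted p was 0.00961 for Rbm4b and 0.0223 to 0.0498 for the others by limma, on 1 residual degree of freedom. None held under every setting tried. Prkd2 and Rbm4b passed under 6 of 10 alternatives, Erdr1 and Fahd1 under 5 of 10, Hap1 and Ly6e under 4 of 10, and Degs2, H2-DMb1, Larp7 and Prp2 under 3 of 9. Log2 sizes kept their sign in all of these. On the 9 arrays of weeks 1, 3 and 5 none of the 10 passed. The probe sets of Fahd1, Erdr1 and Ly6e carry the suffix _f_at, so their signals cannot be given to 1 gene. The cause of these departures was not tested.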

How the results depend on the processing

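The week comparison gave 0 probe sets past the threshold in the fit reported (456 at an unadjusted p under 0.05) and under each alternative floor, filter, normalization and moderation, with array weights, and with 8, 9 or 12 arrays. Leaving out 1 pair gave 0 to 22. The 22 came without the healthy sedentary pair. Without the replicate block, that is without pairing by condition, 0 passed and 314 had an unadjusted p under 0.05. For the departure of healthy sedentary hearts the 11 calls became 1 with a floor of 1, 0 with a floor at the control limit, 105 with log2 of signal plus 16, 0 without the filter, 6 with the filter at the 60th percentile, 4 with quantile normalization, 48 with arrays centred on their medians, 0 without an intensity trend, 57 with robust moderation and 0 on 9 arrays. For diabetic sedentary hearts the 0 became 7 with centred arrays. For healthy trained hearts the 1 became 18 with a floor at the control limit, 4 with log2 of signal plus 16, 0 without the filter, 25 with the filter at the 60th percentile, 0 with quantile normalization, 0 without a trend and 0 on 9 arrays. The cause of these differences was not tested, except that fewer or more probe sets enter with another filter. Hsp90aa1 turned to -0.10 and Pdia6 to -0.09 both with 8 and with 12 arrays, which add the diabetic trained array of week 3. Of 747 recomputed list medians 700 moved by less than the spread between conditions and 47 by more; no lung marker was left with the filter at the 60th percentile. The limits are those of 3 pools per week on 1 run day each, signals near the control limit for the dimmer genes, and probe sets of 1 gene that disagree.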
